A study of Mus musculus with 6 samples.

Results

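Interferon-inducible PARPs and their partner Dtx3l were followed in stem and progenitor cells of FLT3-ITD mice with and without the microRNA miR-155. The members were the 7 rows of the deposited table, of 22475 genes in all, that carried the symbols Parp9, Dtx3l, Parp14, Parp12, Parp10, Parp11 and Parp1. Parp1 is not known to be interferon inducible and served as the comparison within the family. RNA had been measured in 6 libraries of bone marrow cells sorted as Lin-, Sca1+ and cKit+, a gate that enriches blood-forming stem cells and early progenitors. All mice carried FLT3-ITD on both alleles. This tandem duplication inside the FLT3 gene leaves its receptor kinase signalling without ligand. In 3 libraries the mice also carried a homozygous deletion of miR-155 (FLT3-ITD miR-155 KO, called KO), and in the other 3 the miR-155 locus was wild type (FLT3-ITD). RNA of 3 mice was pooled for each library, so all p-values measure the spread between pools and not between animals.

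PARPs are ADP-ribosyltransferases, which take ADP-ribose from NAD and attach it to proteins. PARP1 builds long chains of it at DNA breaks, whereas most of the interferon-inducible enzymes add single units. Interferons act through receptors that activate JAK kinases and, through them, transcription factors that bind the interferon-stimulated response element (ISRE) of its target genes. In the haematopoietic system interferon is known to drive quiescent stem cells into cycle and to raise Sca1, an antigen of the sort gate itself. PARP9 and DTX3L form a complex in which DTX3L is the ubiquitin ligase.

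Totals lay between 6843129 and 9443615 counts per library, and every member had at least 376 counts in every library. The long noncoding transcript of the miR-155 host locus (Gm26667, chromosome 16, 84703167 to 84715245, mm10) had 4, 14 and 4 counts in KO libraries, against 33, 48 and 36 in FLT3-ITD libraries. For Gm26667 edgeR gave a log2 difference of -2.14 ± 0.46 (SE; adjusted p 0.274, or 0.0377 with the replicate number as a block), and DESeq2 an adjusted p of 0.0182. Kit lay between 242 and 387 CPM and Ly6a, which encodes Sca1, between 105 and 128 CPM over all libraries. T and NK cell markers (8 genes) summed to 74.6 to 85.6 CPM in KO and 72.8 to 88.9 CPM in FLT3-ITD libraries. CPM are counts divided by library size (scaled by the TMM method) and brought to a common total. B and plasma cell markers (9 genes) summed to 3901 to 10852 CPM in KO libraries, against 11943 to 20921 CPM in FLT3-ITD libraries. Of the 8 tested, 0 passed in edgeR without the block and 5 passed as lower with it. Over all genes 0.144% passed as lower without the block and 1.04% with it. Neutrophil markers (8 genes, 1 of 8 with a positive fold change, median log2 fold change -0.71) summed to 1793 to 2521 CPM in KO libraries, against 2114 to 2941 CPM in FLT3-ITD libraries. Mpo alone was at 1310 to 1928 CPM in KO and 1301 to 1971 CPM in FLT3-ITD libraries, the largest part of each sum. Mpo and Elane overlapped between groups. Ngp, Ltf, Camp, S100a8, S100a9 and Retnlg were lower in every KO library than in every FLT3-ITD library, as were 4.79% of all genes. S100a9 was at 107 to 172 CPM in KO and 204 to 258 CPM in FLT3-ITD libraries. KO replicate 1 and FLT3-ITD replicate 1 stood apart from the rest. Macrophage markers (9 genes, 2 of 9 with a positive fold change) summed to 126 to 521 CPM in KO libraries, against 105 to 699 CPM in FLT3-ITD libraries, and the highest sum of each group was that of replicate 1. Dendritic cell markers (8 genes, 6 of 8 with a positive fold change) summed to 1042 to 2402 CPM in KO libraries, against 1025 to 1517 CPM in FLT3-ITD libraries, again highest in replicate 1 of each. Irf8 was the largest part of each dendritic sum (667 to 1411 CPM in KO, 604 to 961 CPM in FLT3-ITD libraries). The other dendritic markers were also each highest in KO replicate 1. No marker of either list was at 0 in any library. The part of these cells in the results below was not tested, and each member is given also without replicate 1. In such bulk samples a change in the share of a cell type and a change in RNA per cell cannot be told apart.

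The members sit on 4 chromosomes, with coordinates of GENCODE M21 on GRCm38, the assembly also called mm10. Parp9 (chromosome 16, 35938470 to 35972605, plus strand) and Dtx3l (chromosome 16, 35926511 to 35939151, minus strand) start head to head, and their annotated bodies overlap by 682 bases. Of these, 458 bases are exonic in both, 9.40% of the exon bases of Parp9 and 8% of those of Dtx3l. The use of strand in the authors' counting is not given in the sources used here, so reads in that stretch cannot be told apart. Parp14 (chromosome 16, 35832874 to 35871544, minus strand) lies on the far side of Dtx3l from Parp9. Parp12 (39086410 to 39118349, minus strand) and Parp11 (127446840 to 127494261, plus strand) are on chromosome 6. Parp10 (chromosome 15, 76231174 to 76243441, minus strand) shares 205 exon bases, 4.80% of its own, with Plec on the same strand. Identifiers are ENSMUSG00000022906 (Parp9), ENSMUSG00000049502 (Dtx3l), ENSMUSG00000034422 (Parp14), ENSMUSG00000038507 (Parp12), ENSMUSG00000063268 (Parp10), ENSMUSG00000037997 (Parp11) and ENSMUSG00000026496 (Parp1). Parp1 (chromosome 1, 180568924 to 180601254, plus strand) overlaps no other protein-coding gene.

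The mature miR-155-5p, which the KO mice lack, is shown with its seed (bases 2 to 8) in capitals, because its match in a member's 3′ UTR would mark a candidate direct target (RefSeq, GRCm38.p6, plus strand).
miR-155-5p: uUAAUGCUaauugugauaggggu
Full matches to that seed, AGCATTA in the 3′ UTR, were found in 0 of the 7 longest annotated 3′ UTRs of the members, against 9.85% of 11761 tested genes with such a UTR. The UTRs searched ran from 376 bases in Parp9 to 2788 bases in Dtx3l. A weaker match, to bases 2 to 7 with an A opposite base 1, was present once, 2754 bases into the Dtx3l 3′ UTR, and is shown in capitals.
Dtx3l site: tattatctGCATTAAataaagtc
Either kind of match was present in 14.7% of the same 11761 genes. A match is a description of letters and not evidence of binding.

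Promoter windows, from 250 bases before to 50 after the annotated start, are printed for 3 of the interferon-inducible members and for Parp1, to set the interferon-responsive elements beside the expression data (RefSeq, GRCm38.p6). RefSeq entries matched 4 of the 7 members, in 5 windows. Capitals mark matches to an ISRE core, which is GAAA, then any 2 bases (NN), then GAAA, or to a gamma-interferon activated site (GAS), TTCNNNGAA, searched on both strands.
Parp11 (chr6:127446590-127446889, plus strand): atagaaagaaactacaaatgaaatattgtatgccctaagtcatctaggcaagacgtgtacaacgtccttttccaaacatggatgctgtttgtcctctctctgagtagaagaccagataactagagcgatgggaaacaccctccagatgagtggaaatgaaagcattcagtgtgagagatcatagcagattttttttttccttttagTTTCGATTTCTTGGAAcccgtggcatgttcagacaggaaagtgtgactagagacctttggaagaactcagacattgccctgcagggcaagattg
Dtx3l (chr16:35938978-35939277, minus strand): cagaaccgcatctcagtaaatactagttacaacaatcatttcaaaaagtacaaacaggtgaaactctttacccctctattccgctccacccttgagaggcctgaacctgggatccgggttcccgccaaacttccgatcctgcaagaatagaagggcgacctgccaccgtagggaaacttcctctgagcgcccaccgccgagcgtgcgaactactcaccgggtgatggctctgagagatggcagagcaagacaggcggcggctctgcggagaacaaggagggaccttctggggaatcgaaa
Parp12 (chr6:39118300-39118599, minus strand): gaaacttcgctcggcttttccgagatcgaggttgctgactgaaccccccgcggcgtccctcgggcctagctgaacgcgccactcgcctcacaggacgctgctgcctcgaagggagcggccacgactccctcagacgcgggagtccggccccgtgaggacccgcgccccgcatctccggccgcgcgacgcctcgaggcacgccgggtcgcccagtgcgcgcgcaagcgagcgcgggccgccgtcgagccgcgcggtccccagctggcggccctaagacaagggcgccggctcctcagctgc
Parp1 (chr1:180568641-180568940, plus strand): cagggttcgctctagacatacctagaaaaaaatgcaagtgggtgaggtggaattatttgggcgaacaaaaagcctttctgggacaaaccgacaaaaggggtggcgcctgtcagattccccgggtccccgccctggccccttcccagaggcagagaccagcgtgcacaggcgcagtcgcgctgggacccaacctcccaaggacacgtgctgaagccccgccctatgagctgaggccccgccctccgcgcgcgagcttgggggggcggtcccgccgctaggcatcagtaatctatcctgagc
The Parp11 window at the upstream start held both motifs. The ISRE core reads TTTCGATTTC on the printed strand and GAAATCGAAA on the other, begins 44 bases before the start and overlaps the GAS, TTCTTGGAA, which begins 37 bases before it. Neither motif was present in the windows of Dtx3l, Parp12 and Parp1 or in the window of a second Parp11 start. Of 32851 windows of the same length, 3.44% held the ISRE core and 8.30% the GAS. The Dtx3l window lies within the annotated body of Parp9. Absence of these letters says nothing of elements outside the windows.

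All 6 interferon-inducible members had higher mean levels in KO libraries, between 1.19-fold for Parp10 and 1.44-fold for Parp14, whereas Parp1 was at 0.946-fold. None of the 7 passed the threshold of an adjusted p of 0.05 in edgeR. The median log2 fold change (KO over FLT3-ITD) of the 6 was 0.31, against 0.00 over all 13217 genes tested, whose quartiles were -0.10 and 0.10. The comparison asked which transcripts of FLT3-ITD progenitors differ in the absence of miR-155. It was made with edgeR's quasi-likelihood test on all tested genes, of which 2 passed as higher in KO (0.0151%), Cxcl10 and Iigp1, and 19 as lower (0.144%).

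PARP9, a macrodomain protein, and DTX3L, its ubiquitin ligase partner, had similar fold changes. Parp9 was measured at 183, 150.02 and 142 CPM in KO replicates 1, 2 and 3, against 135, 125 and 123.3 CPM in FLT3-ITD replicates 1, 2 and 3. Every KO library lay above every FLT3-ITD library, and the means were 158 ± 21.7 CPM in KO and 128 ± 6.49 CPM in FLT3-ITD libraries (SD, n = 3 each). The log2 fold change was 0.31 ± 0.11 (SE, 95% interval 0.05 to 0.56), with an adjusted p of 0.9995 in edgeR. Intervals here hold for a gene taken alone and are not adjusted over the genes tested. Dtx3l was measured at 235, 221 and 165 CPM in KO replicates 1, 2 and 3, against 157, 180.4 and 164 CPM in FLT3-ITD replicates 1, 2 and 3. KO replicates 1 and 2 were above all FLT3-ITD libraries, while KO replicate 3 lay among them. Its log2 fold change was 0.31 ± 0.14 (SE, 95% interval -0.01 to 0.63; adjusted p 0.9995 in edgeR). The log2 ratio of Parp9 to Dtx3l counts, which is not corrected for length, was -0.38 ± 0.17 in KO and -0.39 ± 0.16 in FLT3-ITD libraries (SD, n = 3 each). It ranged from -0.56 to -0.22 in KO and from -0.53 to -0.22 in FLT3-ITD libraries, so the balance of the pair overlapped between groups.

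PARP14, a large macrodomain protein that transfers single ADP-ribose units and is known as a cofactor of STAT6, had the highest fold change of the members. Parp14 was measured at 312, 236 and 189.6 CPM in KO replicates 1, 2 and 3, against 188, 158 and 165 CPM in FLT3-ITD replicates 1, 2 and 3. All KO libraries were above all FLT3-ITD libraries, by a small margin between KO replicate 3 and FLT3-ITD replicate 1. Means were 246 ± 61.5 CPM in KO and 170.4 ± 15.9 CPM in FLT3-ITD libraries (SD, n = 3 each), a log2 fold change of 0.53 ± 0.18 (SE, 95% interval 0.11 to 0.94) with an adjusted p of 0.8997 in edgeR. The log2 ratio of Parp14 to Parp1 counts was -0.05, -0.50 and -0.94 in KO replicates 1, 2 and 3, against -1.01, -1.11 and -1.11 in FLT3-ITD replicates 1, 2 and 3.

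**Figure D1:**
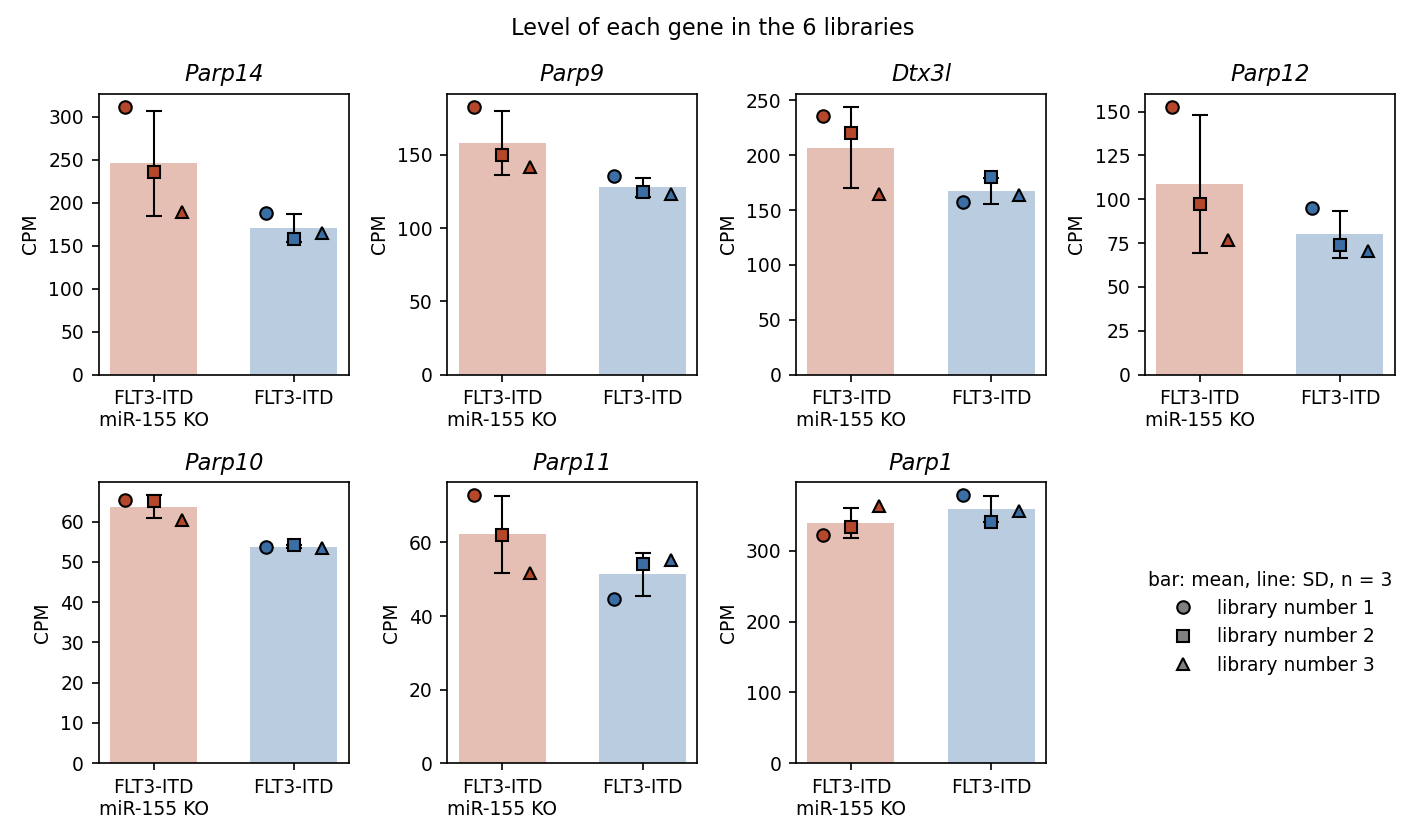
Level of each member in CPM (TMM-scaled, linear axes from 0) in FLT3-ITD miR-155 KO libraries (left of each panel) and FLT3-ITD libraries (right). Bars are means, lines are SD (n = 3) and points are libraries, with 1 symbol per replicate number. For Parp14, Parp9 and Parp10 no points of the groups overlap, while for Parp12, Parp11 and Dtx3l KO replicate 3 lies among the FLT3-ITD libraries.

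PARP12, a zinc finger protein that adds single ADP-ribose units and restrains the replication of several RNA viruses, varied most between libraries. Parp12 was measured at 153, 97.2 and 76.8 CPM in KO replicates 1, 2 and 3, against 95.3, 73.8 and 70.7 CPM in FLT3-ITD replicates 1, 2 and 3. The groups overlapped, since FLT3-ITD replicate 1 was above KO replicate 3 and close to KO replicate 2. With means of 109 ± 39.2 CPM in KO and 79.96 ± 13.4 CPM in FLT3-ITD libraries (SD, n = 3 each), the log2 fold change was 0.44 ± 0.25 (SE, 95% interval -0.14 to 1.03; adjusted p 0.9995 in edgeR). Without KO replicate 1 it was 0.13, and without both libraries of number 1 it was 0.27.

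PARP10, which adds single ADP-ribose units and carries ubiquitin-interacting motifs, was the least variable of the 6. Parp10 was measured at 65.4, 65.2 and 60.5 CPM in KO replicates 1, 2 and 3, against 53.7, 54.1 and 53.5 CPM in FLT3-ITD replicates 1, 2 and 3. The groups did not overlap. The FLT3-ITD SD of 0.297 CPM was below the 2.49 CPM that counting error alone gives at these depths, so the closeness of these 3 libraries is finer than the counts can resolve. Its log2 fold change was 0.25 ± 0.08 (SE, 95% interval 0.06 to 0.43) with an adjusted p of 0.883 in edgeR. PARP11, an enzyme with a WWE domain that also adds single units, was measured at 72.8, 62.01 and 51.8 CPM in KO replicates 1, 2 and 3, against 44.7, 54.1 and 55.2 CPM in FLT3-ITD replicates 1, 2 and 3. Here KO replicate 3 was below FLT3-ITD replicates 2 and 3, and FLT3-ITD replicate 1 was the lowest of all. For Parp11 the log2 fold change was 0.28 ± 0.15 (SE, 95% interval -0.07 to 0.62; adjusted p 0.9995 in edgeR), and 0.06 without both libraries of number 1.

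Parp1 was measured at 322, 333 and 363 CPM in KO replicates 1, 2 and 3, against 378, 341 and 356 CPM in FLT3-ITD replicates 1, 2 and 3. The groups overlapped, with KO replicates 1 and 2 below all FLT3-ITD libraries and KO replicate 3 among them. Its log2 fold change was -0.08 ± 0.08 (SE, 95% interval -0.28 to 0.11), with an adjusted p of 0.9995 in edgeR. The interval ended at 0.1148 and that of Parp14 began at 0.1145, and the difference between these genes was not tested. Without both libraries of number 1 the log2 fold change of Parp1 was -0.00.

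**Figure D2:**
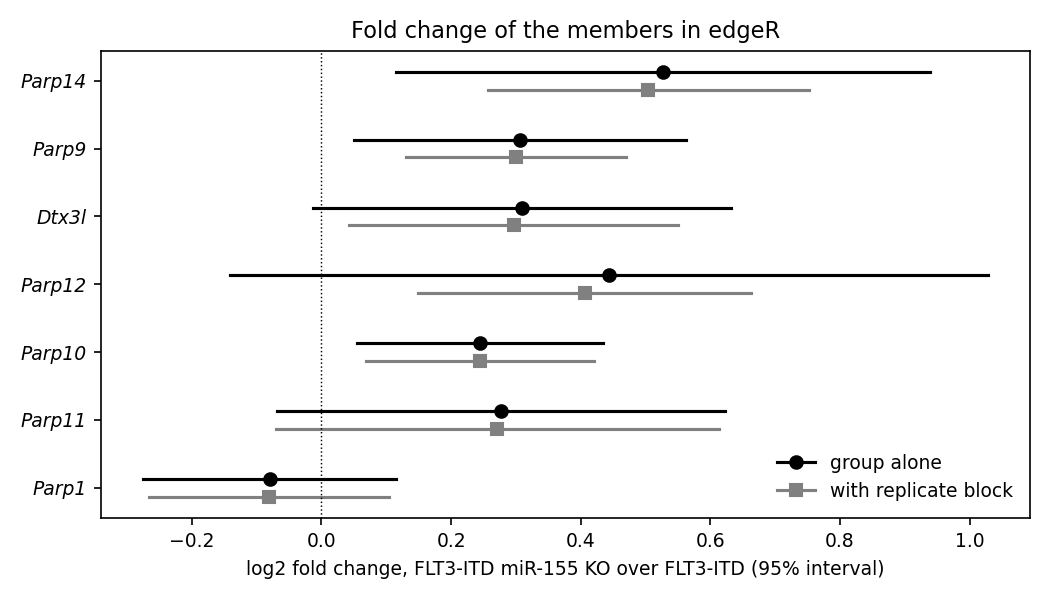
Log2 fold change of each member, FLT3-ITD miR-155 KO over FLT3-ITD, from edgeR with the group alone (black circles) and with the replicate number as a block (grey squares). Lines are 95% intervals not adjusted over genes, and the 6 interferon-inducible members lie between 0.25 and 0.53 with the group alone, with Parp1 at -0.08.

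Counts over the 6 interferon-inducible members were read against the same counts over all genes. Members were chosen with earlier results of these data known, and they share their libraries, so these contrasts are descriptions. All 6 had a positive log2 fold change, against 50.2% of the 13217 genes. Groups did not overlap, with KO higher, for 3 of the 6 (Parp14, Parp9 and Parp10), against 3.43% of all genes, while 4.79% of all genes were apart with KO lower. In 5 of the 6 the KO library was higher in all 3 pairs of equal replicate number, against 15.1% of all genes, and the exception was Parp11 in pair 3 (log2 difference -0.09). At an unadjusted p under 0.05 in edgeR 3 of the 6 were higher in KO, against 1.41% of all genes (2.48% were lower), and 0 passed after adjustment. In DESeq2, run with no low-count filter, 3 of the 6 had an unadjusted p under 0.05. Over its 22470 genes 0.685% were higher at that level and 1.35% lower, so these shares cover more genes than those of edgeR. After adjustment 0 passed in DESeq2 (lowest adjusted p 0.460, for Parp14). Of its 15498 genes with an adjusted p, 0.0516% passed as higher and 0.794% as lower. In the authors' deposited table the log2 fold change of Parp14 was 0.53 with an adjusted p of 0.599, and the other 6 members had an adjusted p of 0.9999. With the replicate number as a block, 5 of the 6 had an unadjusted p under 0.05 (4.43% of all genes were higher at that level and 4.93% lower), and 0 passed after adjustment. Adjusted p with that block in edgeR ran from 0.103 for Parp14 to 0.626 for Parp11, while 42 genes (0.318%) passed as higher in KO and 138 (1.04%) as lower.

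The size of the difference depended on the replicate. KO replicate 1 was the highest of the 6 libraries for all 6 interferon-inducible members, and it was the lowest for Parp1. Over the 6, the median log2 difference within pairs of equal number was 0.63 in pair 1, 0.28 in pair 2 and 0.15 in pair 3. Relative to each gene's own mean, the mean log2 CPM of the 6 was 0.44, 0.16 and -0.09 in KO replicates 1, 2 and 3, against -0.13, -0.17 and -0.20 in FLT3-ITD replicates 1, 2 and 3. The SD between libraries was larger in KO than in FLT3-ITD for all 7 members. How many of all genes were highest in KO replicate 1, or had a larger SD in KO, is not given here. KO replicate 1 was also the library with the highest dendritic cell marker sum (2402 CPM) and the second highest macrophage marker sum (521 CPM), whose part was not tested. Parp11 was at 0.15 without KO replicate 1, and the median of the 6 was 0.20, with Parp14 at 0.32, Parp9 at 0.19 and Dtx3l at 0.21. Without both libraries of number 1 the median was 0.23, with Parp14 at 0.40, Parp9 at 0.24, Parp10 at 0.23 and Dtx3l at 0.17. The groups then did not overlap, with KO higher, for 4 of the 6 (Parp12 added), against 16.5% of all genes. At an unadjusted p under 0.05 in edgeR 3 of the 6 were higher on those 4 libraries (Parp14, Parp9 and Parp10), against 2.8% of all genes, and 0 passed after adjustment.

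**Figure D3:**
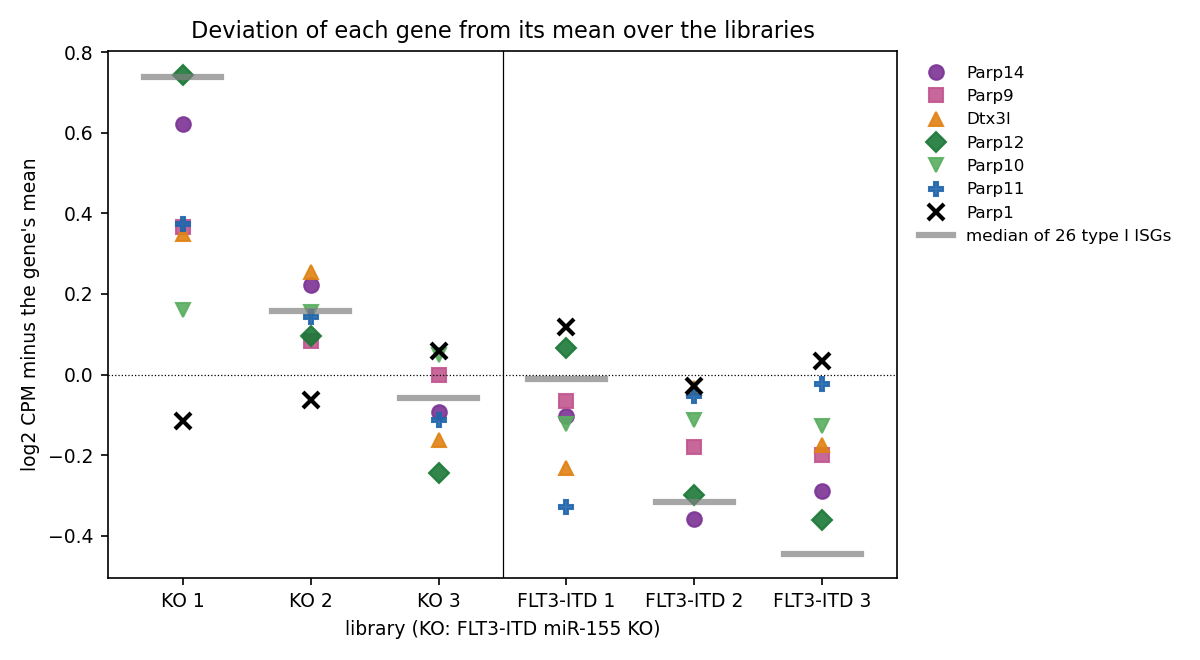
Log2 CPM of each member minus its own mean over the 6 libraries, for KO libraries 1 to 3 (FLT3-ITD miR-155 KO, left) and FLT3-ITD libraries 1 to 3 (right), with the median of 26 type I interferon-stimulated genes (ISGs) as a grey bar. All 6 interferon-inducible members are highest in KO library 1, where the grey bar is at 0.74 and Parp1 at -0.12.

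Similarity between members was measured as the root mean square (RMS) difference between log2 CPM profiles over the 6 libraries, each centred on its mean. The smallest differences were between Parp11 and Dtx3l (0.09), Parp9 and Parp10 (0.10) and Parp12 and Parp14 (0.12). The head-to-head pair Parp9 and Dtx3l differed by 0.13. Among the interferon-inducible members the largest difference was between Parp10 and Parp12 (0.30), and Parp1 differed from the 6 by 0.19 (Parp10) to 0.43 (Parp12). Profiles of genes share their libraries, so these values are a description. Another 10392 genes had a mean log2 CPM of 3 or more, and of these the 8 nearest to the mean profile of the 6 were Mcl1 (RMS difference 0.05), Arf5 (0.05), Helz2 (0.05), Nlrc5 (0.05), Icam1 (0.06), Ftl1 (0.06), Dnhd1 (0.06) and Trafd1 (0.06). The median over those 10392 genes was 0.26, and the mean profile itself had an RMS size of 0.23. MCL1 is a survival factor of the BCL2 family, NLRC5 a transactivator of MHC class I genes and ICAM1 an adhesion molecule. Their log2 fold changes ran from 0.24 for Ftl1 to 0.40 for Icam1, and none of the 8 passed with or without the block.

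Levels between genes were compared per length, in the authors' FPKM. The order in FLT3-ITD libraries, from low to high, was Parp11, Parp10, Parp14, Parp12, Parp9, Dtx3l and Parp1, and it was the same in KO libraries. Parp11 averaged 10.8 FPKM in KO (range 9.18 to 12.1) and 8.97 FPKM in FLT3-ITD libraries (range 7.61 to 9.71). Parp10 averaged 14.9 ± 0.699 FPKM in KO and 12.6 ± 0.2999 FPKM in FLT3-ITD libraries (SD, n = 3 each). Ranges of Parp14 and Parp12 overlapped in both groups (means 26.2 and 26.97 FPKM in KO, 18.3 and 19.9 FPKM in FLT3-ITD). So did those of Parp9 and Dtx3l (32.3 and 36.0 FPKM in KO, 26.2 and 29.2 FPKM in FLT3-ITD). Ranges of Parp12 and Parp9 overlapped in KO libraries and were apart in FLT3-ITD libraries. Parp1 stood above the rest, with 88.1 ± 7.95 FPKM in KO and 93.02 ± 2.92 FPKM in FLT3-ITD libraries (SD, n = 3 each).

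Other genes of ADP-ribose metabolism had list medians between -0.02 and 0.10. Without KO replicate 1 they lay between -0.01 and 0.13, with the other PARP genes at -0.01, and without both libraries of number 1 between -0.00 and 0.23, highest for the 3 Deltex ligases. Of the 10 other PARP family genes tested, 0 passed in edgeR with or without the block or in DESeq2, and 0 had an unadjusted p under 0.05 without the block. Their median log2 fold change was 0.04. Smallest p-values were those of Parp8 (0.20), Zc3hav1, the antiviral zinc finger protein ZAP that is catalytically inactive (0.15), and the tankyrase Tnks (-0.07, all log2 fold changes), and edgeR gave all of them an adjusted p of 0.9995. With the block 1 of the 10, Parp8, had an unadjusted p under 0.05. ADP-ribose hydrolases and macrodomain proteins (11 tested) had a median of -0.02, with 0 passing and 0 at an unadjusted p under 0.05 in edgeR or DESeq2. Macrod2 (0.34), Adprh (0.11) and Gdap2 (-0.11) had the smallest p. Deltex ubiquitin ligases other than Dtx3l (3 tested) had values of 0.25 for Dtx2, 0.10 for Dtx4 and -0.07 for Dtx3, with 0 passing in edgeR or DESeq2, 0 at an unadjusted p under 0.05 without the block and 1 with it.

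Genes of NAD metabolism (10 tested) had a median of 0.01 and 0 passing in edgeR or DESeq2, with 0 at an unadjusted p under 0.05 without the block and 2 with it. Nampt, the rate-limiting enzyme of NAD salvage, averaged 253 ± 53.6 CPM in KO and 196 ± 35.2 CPM in FLT3-ITD libraries (SD, n = 3 each). Its log2 fold change of 0.37 ± 0.18 (SE) had an adjusted p of 0.9995 in edgeR, and 0.0542 with the block, with pair differences of 0.41, 0.30 and 0.38. Nmrk1 (-0.40) and Nadk (0.16) had the next smallest p. Of 12 genes of DNA break repair linked to PARP1, 0 passed in edgeR or DESeq2, 0 had an unadjusted p under 0.05 without the block and 1 with it, and the median was -0.02. Aplf (-0.20) and Lig1 (-0.11) had the smallest p of these.

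Interferon signalling and interferon-stimulated genes had positive list medians. Of 12 interferon receptor and signalling genes, 11 had a positive log2 fold change and the median was 0.25, or 0.07 without KO replicate 1 (9 of 12 positive) and 0.15 without both libraries of number 1. In edgeR 0 passed and 2 were higher at an unadjusted p under 0.05 (1.41% of all genes), and with the block 1 and 7 (0.318% and 4.43%). In DESeq2 0 passed and 3 were higher at that level (0.685% of its 22470 genes, with no low-count filter). Irf7, a transcription factor that is itself interferon inducible, averaged 251 ± 117 CPM in KO and 132 ± 45.7 CPM in FLT3-ITD libraries (SD, n = 3 each). It rose in the fit with the replicate block by 0.88 ± 0.09 (SE; adjusted p 0.00477 in edgeR), and did not pass without it (adjusted p 0.9995). Irf1 (0.39) did not pass, with an adjusted p of 0.0995 in edgeR with the block. Of 26 type I interferon-stimulated genes, 25 had a positive log2 fold change and the median was 0.54, or 0.30 without KO replicate 1 (24 of 26 positive) and 0.47 without both libraries of number 1. In edgeR 0 of the 26 passed and 16 had an unadjusted p under 0.05 (all higher in KO, against 1.41% of all genes). DESeq2 gave 0 and 16 (0.685% of its 22470 genes). With the block 12 passed as higher, against 0.318% of all genes: Oas3, Oasl1, Rsad2, Usp18, Ifit2, Mx1, Cmpk2, Ifih1, Oas2, Ifi44, Oas1a and Bst2. In the blocked fit without both libraries of number 1, 7 of these passed (Rsad2, Oas3, Oasl1, Usp18, Mx1, Cmpk2 and Ifi44), as did Irf7. That fit has 4 libraries and 1 residual degree of freedom, against 2 with all 6 libraries, so the blocked calls lean on spread shared over genes. Without the block 1 of the 26 and 0 of the 12 signalling genes passed on those 4 libraries. Usp18, an ISG15 protease that restrains the interferon receptor, had a log2 fold change of 0.88 with an SE of 0.08 in the blocked fit of all 6 libraries (edgeR, adjusted p 0.00314). The difference between these lists and the PARP members was not tested.

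**Figure D4:**
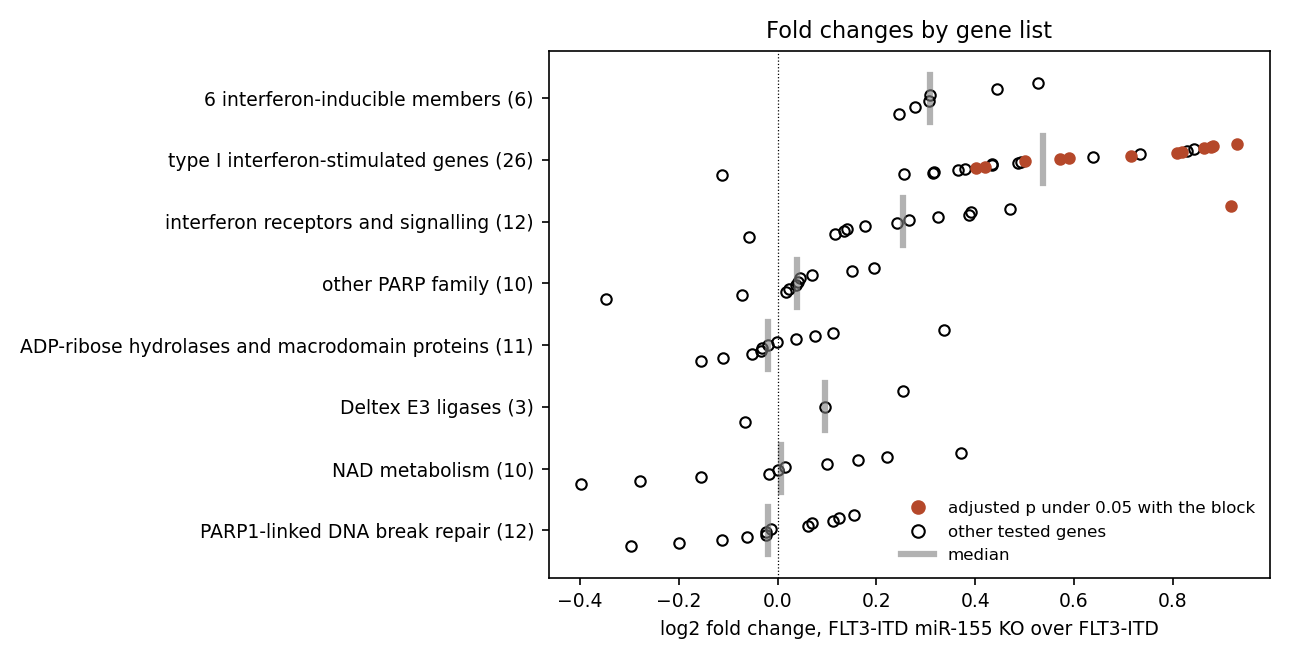
Log2 fold change, FLT3-ITD miR-155 KO over FLT3-ITD, of each tested gene by list (number of genes in parentheses), with medians as grey bars and genes that passed with the replicate block filled. The 6 interferon-inducible members have a median of 0.31, between interferon receptors and signalling (0.25) and type I interferon-stimulated genes (0.54), and the other PARP family is at 0.04.

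Genes next to Parp9, Dtx3l and Parp14 on chromosome 16 were listed as the local comparison, since the deleted miR-155 locus is on the same chromosome, 48.8 Mb from the start of Parp9. Of 8 other tested genes that start within 500 kb, 6 had a positive log2 fold change (50.2% of all genes) and the median was 0.07, in a range from -0.15 for Fam162a to 0.35 for Pdia5. None passed in edgeR with or without the block or in DESeq2, and 0 had an unadjusted p under 0.05 in any of these. Groups did not overlap, with KO higher, for 1 of the 8 (3.43% of all genes), Ccdc58 (0.22, adjusted p 0.9995 in edgeR).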

How the data were processed

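Counts per gene and library were made and deposited by the authors as whole numbers with no normalization. FPKM values, and a comparison with a log2 fold change and an adjusted p-value per gene, were deposited by the authors in the same table. The tools named in the submitters' processing notes are Novoalign (2.08.01) and DESeq2 (1.10.1), with mm10 as genome build. Counter, annotation and strand setting are not given in the sources used here. Groups and replicate numbers came from the titles.

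KO was set against FLT3-ITD in edgeR 4.0.16 under R 4.3.3 (TMM, filterByExpr with a minimum count of 10, quasi-likelihood test with group as the only term, 13217 genes, Benjamini-Hochberg adjustment). Log2 fold changes are KO over FLT3-ITD, and SE came from the F statistic. Members of a list were counted with no set test. DESeq2 1.42.0, limma 3.58.1, RLE size factors, scaling without immunoglobulin genes, other filters, a replicate block and left-out libraries were alternatives. Replicate numbers recur in both groups without a stated meaning. Deviations from group means correlated by 0.57, 0.53 and 0.22 between equal numbers, all above the limit of 0.1 for pairing. Unequal numbers gave at most 0.13 (KO replicate 2 with FLT3-ITD replicate 3), which is above that limit too. The limit alone thus does not tell equal from unequal numbers, and the pairing rests on the data alone.

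On simulated counts of 13053 tested genes, edgeR without the block recovered 2% of the genes set to a 1.25-fold change, 20% at 1.5-fold and 74% at 2-fold. With the block it recovered 2%, 10% and 62%. Simulated libraries were drawn independently, so the likeness between libraries of equal number was not simulated. Members and lists were chosen with earlier results of these data known. Genes named outside the members are those with the smallest p of each list (up to 3), those of a list that passed, the 8 with the nearest profile, and up to 3 neighbours with the smallest p. Kit, Ly6a, Irf8, the neutrophil markers, Cxcl10 and Iigp1 were named after their values were seen. Some genes that this rule names are not reported here. The counting SD covers counting error only and takes no account of PCR copies.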

Additional observations from a re-analysis of the deposited data

How the results depend on the processing

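All 98 fold changes of the 7 members under 14 alternatives kept their direction, and none passed the threshold. For the 6 interferon-inducible members the median of 0.31 ranged from 0.20 to 0.42 when 1 library was left out, lowest without KO replicate 1. It was 0.30 with the replicate block, which changed no call of a member, and 0.23 without both libraries of number 1. Over all genes the count of 21 (2 higher, 19 lower) became 180 with the replicate block, 131 with DESeq2, 97 without a low-count filter and 32 at an adjusted p under 0.1. Leaving out 1 library gave 0 to 27 genes. In edgeR 0 passed without FLT3-ITD replicate 1 or 3 (766 and 358 at an unadjusted p under 0.05), and 8 and 9 without KO replicate 2 or FLT3-ITD replicate 2, all from fits of 5 libraries. The causes were not tested. Of the type I interferon-stimulated genes 12 passed with the block, 7 with the block but without both libraries of number 1, and 1 on those 4 libraries without the block, and of the signalling list 1, 1 and 0. The block leaves 2 residual degrees of freedom on all 6 libraries and 1 without both libraries of number 1. Counts of members and lists without number 1 were chosen after seeing the data. At these depths and this spread, differences of the size of the members (1.19 to 1.44-fold) lay between the simulated folds of which edgeR recovered 2% and 20%, or below.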
